A study of Mus musculus with 12 samples.

Results

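The transcripts of 10 cell cycle genes were followed in purified myelin across the life of the mouse. The genes are Mki67, Top2a, Ccnb1, Cdk1, Birc5, Ccna2, Pcna, Mcm2, Mcm5 and Rrm2, which were chosen by name, and all 10 had a row among the 21937 genes of the expression table. Myelin, the stack of membranes that oligodendrocytes wrap around axons, was prepared from the brains of wild type male c57Bl6/N mice as a light membrane fraction on a sucrose gradient. Its total RNA was sequenced at 4 ages, namely P18 (postnatal day 18), P75 in the young adult, then 6 months, and finally 24 months, in 3 libraries for each age, which makes 12. The libraries of 6 months came from 3 separate brains, and for the other ages the number of mice per library is not given in the sources used here. No treatment, transgene or deletion was applied, and age is the only condition that differs in the labels. The column headers also number the libraries in a separate run for each age. What these numbers stand for is not given, so anything that follows them cannot be told apart from age. Values are normalized read counts, that is, reads on a gene divided by a size factor of the library, and the libraries held 20299052 to 27214385 reads on genes. The fraction had a defining transcript of its label, since Mbp, which encodes the myelin basic protein, had at least 965353 reads in every library. In such bulk RNA, fewer cells of a type and less RNA per cell cannot be told apart. Neither can be told from a different share of cell bodies or other cells carried into the fraction.

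Cells that divide copy their DNA in S phase and separate the copies in mitosis, and many of the genes needed for these steps are transcribed only in the part of the cycle where their products act. E2F factors drive the genes of DNA replication, while the DREAM and MuvB complexes hold back, and later activate, the genes of mitosis through CHR elements and CCAAT boxes in their promoters. In the brain, oligodendrocyte precursors remain able to divide after birth, neurons and mature oligodendrocytes do not, and several replication proteins also serve DNA repair outside S phase.

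The upstream sequences of 5 of the genes are shown as examples, and they hold these elements in different numbers. They are the 250 bases before the annotated start in RefSeq (build GRCm38.p6, all on the minus strand and written 5′ to 3′), and capitals mark each match to a CCAAT box (CCAAT), a CHR (TTTGAA or TTTAAA) or an E2F site (spelled TTCCCGC, alternatively TTGGCGC, further TTCGCGC, and lastly TTGCCGC) on either strand. Mki67 lies at chr7:135716380-135716629, Top2a at chr11:99024190-99024439, Ccnb1 at chr13:100786487-100786736 and Cdk1 at chr10:69352913-69353162. Pcna, shown for comparison, lies at chr2:132253181-132253430.
Mki67: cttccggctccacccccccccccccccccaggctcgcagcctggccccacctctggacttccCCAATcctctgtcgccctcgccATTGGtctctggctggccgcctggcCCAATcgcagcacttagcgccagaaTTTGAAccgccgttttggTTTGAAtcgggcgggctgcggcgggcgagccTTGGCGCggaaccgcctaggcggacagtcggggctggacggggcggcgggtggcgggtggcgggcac
Top2a: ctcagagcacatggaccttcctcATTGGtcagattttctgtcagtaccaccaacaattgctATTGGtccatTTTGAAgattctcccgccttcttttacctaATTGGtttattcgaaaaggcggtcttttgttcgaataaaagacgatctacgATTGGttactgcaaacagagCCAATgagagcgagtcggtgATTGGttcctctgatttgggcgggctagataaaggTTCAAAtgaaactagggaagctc
Ccnb1: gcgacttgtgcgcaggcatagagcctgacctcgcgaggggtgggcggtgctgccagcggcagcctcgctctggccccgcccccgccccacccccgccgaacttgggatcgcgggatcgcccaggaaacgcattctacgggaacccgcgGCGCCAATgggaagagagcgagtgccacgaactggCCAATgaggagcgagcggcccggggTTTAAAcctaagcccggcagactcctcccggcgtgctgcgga
Cdk1: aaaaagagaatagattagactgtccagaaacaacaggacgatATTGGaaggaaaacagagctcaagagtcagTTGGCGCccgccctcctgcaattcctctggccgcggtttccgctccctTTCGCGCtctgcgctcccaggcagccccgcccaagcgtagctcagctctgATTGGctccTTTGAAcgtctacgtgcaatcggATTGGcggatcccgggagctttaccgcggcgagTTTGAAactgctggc
Pcna: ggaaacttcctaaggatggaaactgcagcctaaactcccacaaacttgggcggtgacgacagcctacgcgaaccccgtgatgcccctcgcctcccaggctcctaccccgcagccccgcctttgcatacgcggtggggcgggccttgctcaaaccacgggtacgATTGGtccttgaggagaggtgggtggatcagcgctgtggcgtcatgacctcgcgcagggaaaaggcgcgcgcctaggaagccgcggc

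A CCAAT box was found upstream of 8 of the 9 genes with an entry, and in 33.85% of the 32851 promoters of the table. The CHR was found in 7 of 9 and in 25.17% of all promoters, and both elements together in 6 of 9 and in 8.779%. An E2F site was found in 5 of 9 and in 7.887%. Top2a had 6 CCAAT boxes and 2 CHRs and no E2F match, whereas Cdk1 had 3, 2 and 2 of them. Mki67 held 3 CCAAT boxes, 2 CHRs and 1 E2F match. In Ccnb1 the E2F match at -102 to -96 shared bases with the CCAAT box at -99 to -95, so these are not separate elements. Pcna had a single CCAAT box and neither of the other motifs, and Birc5 had a single CHR. Mcm5 held 3 E2F matches, of which those at -152 to -146 and -149 to -143 overlapped, with 2 CCAAT boxes and 1 CHR. Mcm2 held 1 CCAAT box and 1 CHR, and Rrm2 held 1 CCAAT box and 1 E2F match. The matches describe letters in a window and were not tested as binding sites.

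**Figure D1:**
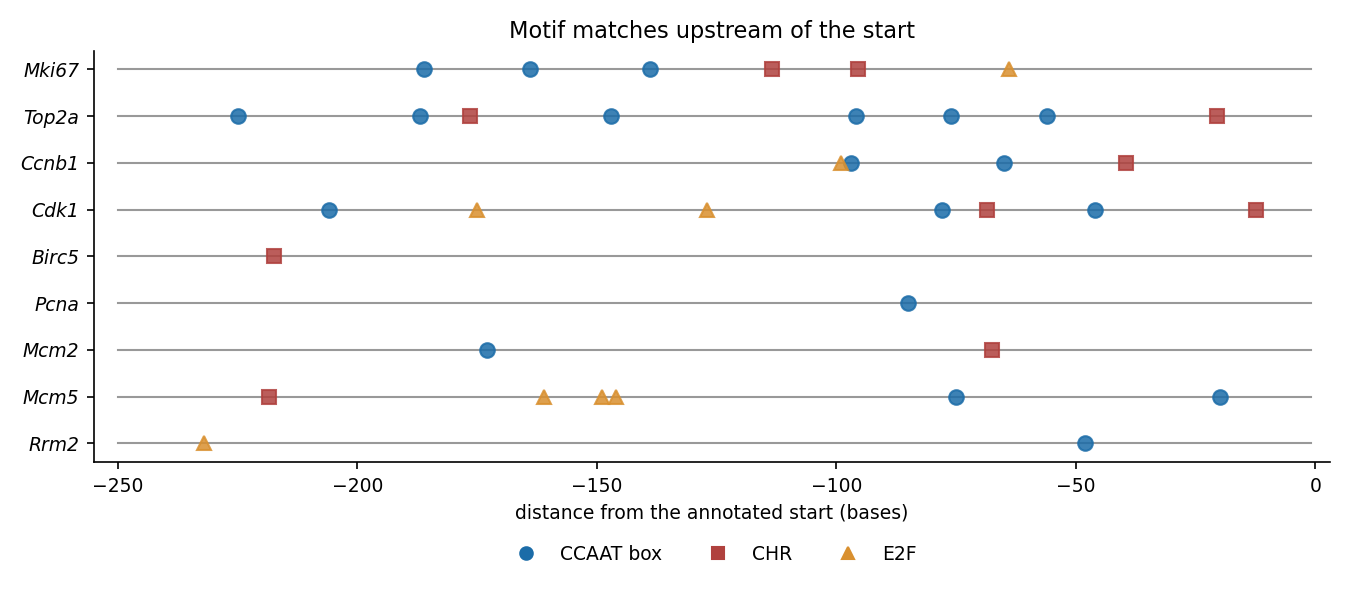
Position of each motif match in the 250 bases before the start of 9 genes (horizontal axis, bases from the annotated start; 1 row per gene; circles CCAAT boxes, squares CHRs, triangles E2F sites). Top2a has 6 circles, the largest number among these genes, and Pcna has 1 match in all.

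The levels of the 10 genes differed widely. To compare genes, values were divided by the length of the merged exons in kb (GENCODE on mm9, the build of the files). At P18, Pcna stood at 986 ± 99.9 normalized reads per kb (SD, n = 3), far above the other 9 genes. Rrm2 followed with 27.6 ± 5.26, Mcm5 with 25.95 ± 3.43 and Mcm2 with 21.2 ± 5.55 per kb. The libraries of these 3 genes overlapped, as did those of Mcm2 with Ccna2, at 16.7 ± 1.46 per kb, and of Ccna2 with Cdk1, at 15.4 ± 1.29 per kb. Birc5, at 11.8 ± 0.306 per kb, lay below every library of Cdk1 and above every library of Top2a. On this length the lowest levels per kb were those of Top2a (9.26 ± 2.14), Mki67 (8.72 ± 1.55) and Ccnb1 (8.44 ± 2.80), which did not differ beyond their spread. With the length of the longest transcript in place of merged exons, the level of Pcna became 1559, that of Top2a 16.1, that of Ccnb1 14.3 and that of Birc5 12.1 per kb, so Top2a and Ccnb1 then stood above Birc5 and the order of these genes depends on the length used.

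At 24 months the order was changed for some genes. Pcna still led with 840 ± 23.9 normalized reads per kb, and Mcm2 (30.4 ± 4.97 per kb) and Mcm5 (28.2 ± 1.34 per kb) came next with overlapping libraries. Ccna2 stood at 11.9 ± 3.23 per kb and Rrm2 at 9.12 ± 2.03 per kb, again with overlap. Birc5 (5.80 ± 0.973 per kb) lay below every library of Rrm2, and Cdk1 (3.59 ± 0.577 per kb) below every library of Birc5. Mki67, Top2a and Ccnb1 were at 1.11 ± 0.128, 1.02 ± 0.363 and 0.918 ± 0.545 per kb and overlapped. All 10 genes were detected in every library, with as few as 2 reads for Ccnb1, 6 for Top2a and 9 for Mki67 and at least 1870 for Pcna.

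**Figure D2:**
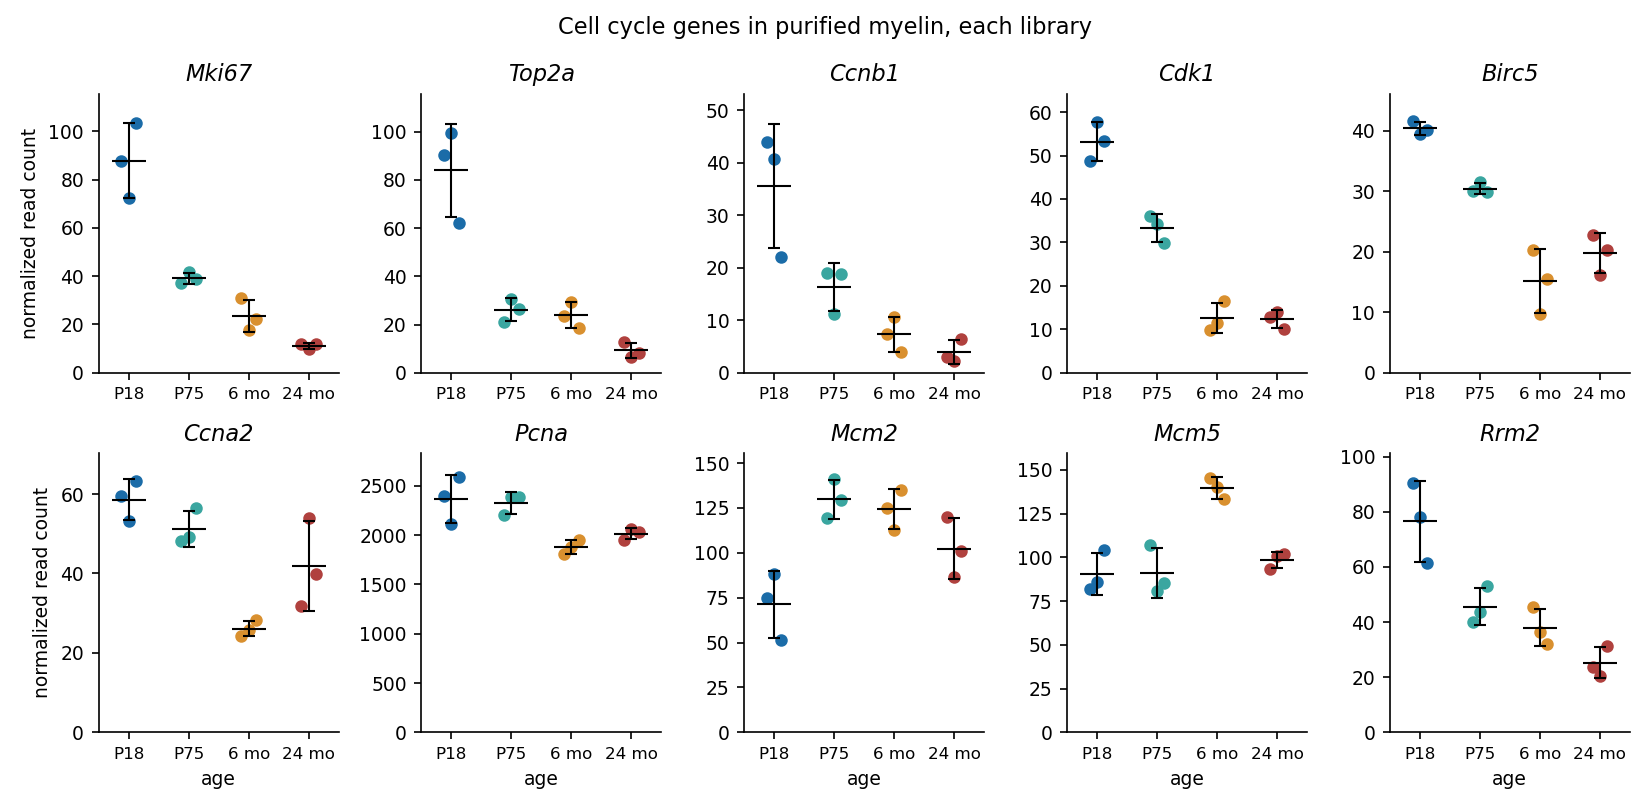
Normalized read count of the 10 genes in each of the 12 libraries (vertical axes, linear and starting at 0, 1 panel per gene; horizontal axis, age; points are libraries, the line the mean and the bars the SD, n = 3). Mki67 runs from a mean of 87.9 at P18 to 11.2 at 24 months, whereas Mcm2 runs from 71.4 to 102.

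Age was tested with limma on log2(normalized read count + 1), in a single fit of all 12 libraries and 14634 genes, and adjusted p is the Benjamini-Hochberg value over all these genes. A gene was called at an adjusted p under 0.1, and log2 changes understate the change of genes with few reads. The 4 comparisons share libraries and are not independent of each other.

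Mki67 (mm9 chr7:142881471-142908062, minus strand) encodes the Ki-67 antigen that coats chromosomes in mitosis and marks proliferating cells. Its normalized read count was 87.9, 72.3 and 103 in the libraries of P18, 37.1, 41.7 and 38.7 at P75, 30.9, 17.8 and 22.4 at 6 months, and 11.9, 9.73 and 12.03 at 24 months. Each age lay below the one before without overlap. Mki67 fell by 1.13 on the log2 scale from P18 to P75 (SE 0.23, limma adjusted p = 0.000932), by 0.74 from P75 to 6 months (SE 0.23, limma adjusted p = 0.0124) and by 0.98 from 6 to 24 months (SE 0.23, limma adjusted p = 0.00892). It was the only one of the 10 genes called lower in all 3 consecutive comparisons. Over the whole span it was 7.23-fold lower at 24 months than at P18 (limma adjusted p = 2.22e-08).

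Top2a (chr11:98854257-98885503, minus strand) encodes topoisomerase II alpha, which untangles sister chromatids. The libraries had normalized read counts of 90.3, 99.4 and 62.3 at P18, 21.0, 30.6 and 26.5 at P75, 23.6, 29.3 and 18.5 at 6 months, and 12.9, 6.49 and 8.33 at 24 months. The P18 libraries stood above all others, those of P75 and 6 months overlapped, and those of 24 months lay below both. It fell by 1.64 on the log2 scale from P18 to P75 (SE 0.28, limma adjusted p = 0.000231) and by 1.30 from 6 to 24 months (SE 0.28, limma adjusted p = 0.006). Between these steps, from P75 to 6 months, the log2 difference was -0.13 with a 95% interval of -0.72 to 0.45 and was not called (limma adjusted p = 0.703). Both falls were large among the 14634 genes, with ranks of 33 and 21, and the change over the whole span, 8.43-fold lower at 24 months, ranked 15 (limma adjusted p = 8.66e-08). The annotated span of Top2a holds 2 snoRNA genes.

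Cdk1 (chr10:68799383-68815686, minus strand) is the kinase that starts mitosis, and Ccnb1 encodes cyclin B1, its partner. Cdk1 had normalized read counts of 48.7, 57.6 and 53.2 at P18, 36.1, 34.3 and 29.9 at P75, 9.75, 11.5 and 16.5 at 6 months, and 12.9, 14.1 and 10.2 at 24 months. Its values fell in steps up to 6 months without overlap and then overlapped fully. The step from P75 to 6 months was a fall of 1.36 on the log2 scale (SE 0.24, limma adjusted p = 0.000193), whereas from 6 to 24 months the log2 difference was -0.01 with a 95% interval of -0.51 to 0.50 (limma adjusted p = 0.99). From P18 to P75 Cdk1 fell by 0.66 (SE 0.24, limma adjusted p = 0.0379). That call was lost without replicate 2 of P18 (-0.60), without replicate 3 of P75 (-0.58) and with libraries scaled to the same total (-0.53), and the adjusted p over all alternatives ran from 0.0127 to 0.113 by limma, edgeR or DESeq2. Over the whole span Cdk1 was 4.07-fold lower at 24 months (limma adjusted p = 1.84e-06).

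Ccnb1 (chr13:101548605-101556525, minus strand) had the fewest reads of the 10 genes, 2 to 37 per library. Its normalized read count was 44.0, 40.7 and 22.1 at P18, 19.0, 11.1 and 18.8 at P75, 7.31, 10.7 and 3.89 at 6 months, and 2.97, 2.16 and 6.48 at 24 months. The first 3 ages did not overlap, and those of 6 and 24 months did. From P18 to 24 months it was 7.73-fold lower (log2 SE 0.42, limma adjusted p = 1.32e-05). The fall of 1.06 on the log2 scale from P18 to P75 (limma adjusted p = 0.0536) was lost without replicate 1 of P18 (-0.88), replicate 2 of P18 (-0.93) or replicate 2 of P75 (-0.82). Likewise, the fall of 1.12 from P75 to 6 months (limma adjusted p = 0.0339) was lost without replicate 1 of P75 (-0.99), replicate 3 of P75 (-1.0) or replicate 3 of 6 months (-0.78). From 6 to 24 months the log2 difference was -0.78 (SE 0.42, limma adjusted p = 0.199), and it was called without replicate 3 of 6 months (-1.11), without replicate 3 of 24 months (-1.14) and with quantile normalization (-1.11). The genome holds 6 other stretches that match the longest Ccnb1 transcript at up to 99.2% identity. How reads that match several places were counted is not given in the sources used here, so the level of Ccnb1 may be affected.

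Birc5 (chr11:117710565-117717069, plus strand) encodes survivin, a subunit of the chromosomal passenger complex that also inhibits apoptosis. Birc5 had normalized read counts of 41.6, 39.6 and 40.2 at P18, 30.1, 31.5 and 29.9 at P75, 20.3, 9.76 and 15.6 at 6 months, and 22.8, 16.2 and 20.4 at 24 months. The values of 6 and 24 months overlapped and lay below all those of P75, which lay below those of P18. It fell by 1.01 on the log2 scale from P75 to 6 months (SE 0.25, limma adjusted p = 0.00305) and by 1.01 over the whole span (SE 0.25, limma adjusted p = 0.00232). From P18 to P75 the libraries did not overlap but the log2 difference of -0.40 was not called (limma adjusted p = 0.222).

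Ccna2 (chr3:36463788-36471072, minus strand) encodes cyclin A2, which partners Cdk2 in S phase and Cdk1 later. Its normalized read count was 59.4, 53.1 and 63.3 at P18, 48.1, 49.1 and 56.4 at P75, 24.4, 25.7 and 28.2 at 6 months, and 31.7, 54.1 and 39.8 at 24 months. The 6 month libraries were the lowest of all, and those of 24 months were spread over a wider range. It fell by 0.94 on the log2 scale from P75 to 6 months (SE 0.20, limma adjusted p = 0.000924). It then rose by 0.63 from 6 to 24 months (SE 0.20, limma adjusted p = 0.038), the only one of the 10 genes called higher there. This rise was not called without replicate 1 of 6 months (0.58), without replicate 2 of 24 months (0.43) or with quantile normalization (0.46), and the adjusted p over all alternatives by limma, edgeR or DESeq2 ran from 0.024 to 0.183. Over the whole span Ccna2 fell by 0.51 (SE 0.20, limma adjusted p = 0.037) with overlapping libraries, a call lost without replicate 1 of 24 months (-0.33) and with scaling to the same total (-0.43). Ccna2 overlaps Exosc9, a subunit of the RNA exosome encoded on the opposite strand, which had means of 868, 802, 938 and 845 normalized reads at the 4 ages. Whether the counting used strand is not given in the sources used here, so reads of the pair may not have been separated.

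Rrm2 (chr12:25393106-25399011, plus strand) encodes the small subunit of ribonucleotide reductase, which supplies deoxynucleotides for S phase. Normalized read counts of Rrm2 were 90.3, 78.0 and 61.3 at P18, 40.1, 43.6 and 53.1 at P75, 45.5, 36.4 and 32.1 at 6 months, and 23.8, 20.5 and 31.5 at 24 months. P75 and 6 months overlapped, and no other neighbouring ages did. It fell by 0.73 on the log2 scale from P18 to P75 (SE 0.22, limma adjusted p = 0.0136) and by 1.57 over the whole span (SE 0.22, limma adjusted p = 1.06e-05). From 6 to 24 months it fell by 0.58 (SE 0.22, limma adjusted p = 0.0708). This last call was lost without replicate 1 (-0.44) or 2 (-0.60) of 6 months, without replicate 1 (-0.55) or 2 (-0.44) of 24 months, with DESeq2 (-0.58) and without the filter on low values (-0.58). Another stretch of the genome matches 47.7% of the longest Rrm2 transcript at 94.2% identity.

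Pcna (chr2:132074898-132079050, minus strand) encodes the sliding clamp of DNA polymerases, used in replication and in repair. Its normalized read count was 2397, 2113 and 2589 at P18, 2199, 2389 and 2391 at P75, 1804, 1877 and 1951 at 6 months, and 1951, 2060 and 2036 at 24 months. The first 2 ages overlapped, and every later library lay below them. Pcna fell by 0.31 on the log2 scale from P75 to 6 months (SE 0.08, limma adjusted p = 0.00564). Over the whole span it fell by 0.23 (SE 0.08, limma adjusted p = 0.0271), a 1.17-fold difference, and this call was lost without replicate 3 of P18 (-0.16) and with scaling to the same total (-0.15). A stretch on chromosome 19 matches 82.8% of its longest transcript at 99.3% identity, so the counting of reads that match both may affect its level.

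Mcm2 and Mcm5 encode subunits of the MCM2-7 helicase that is loaded on replication origins in G1. Mcm2 (chr6:88833469-88848774, minus strand) had normalized read counts of 74.9, 88.1 and 51.2 at P18, 119, 141 and 129 at P75, 125, 113 and 135 at 6 months, and 120, 86.5 and 100.9 at 24 months. The P18 libraries lay below all those of P75 and 6 months, and 1 library of 24 months fell within their range. Mcm2 rose by 0.89 on the log2 scale from P18 to P75 (SE 0.18, limma adjusted p = 0.00112), the opposite direction to Mki67, Top2a, Ccnb1, Cdk1 and Rrm2 in the same libraries. It was also higher at 24 months than at P18, by 0.54 (SE 0.18, limma adjusted p = 0.0171), a call lost with quantile normalization (0.27).

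Mcm5 (chr8:77633427-77652338, plus strand) was highest at 6 months. Its normalized read count was 82.0, 85.9 and 104 at P18, 107, 80.7 and 85.1 at P75, 145, 140 and 133 at 6 months, and 93.1, 100.6 and 102 at 24 months. The 6 month libraries lay above all 9 others, which overlapped. Mcm5 rose by 0.62 on the log2 scale from P75 to 6 months (SE 0.14, limma adjusted p = 0.00179) and fell by 0.50 from 6 to 24 months (SE 0.14, limma adjusted p = 0.0249). From P18 to 24 months it was the only one of the 10 genes that was not called, with a log2 difference of 0.12 and a 95% interval of -0.18 to 0.43.

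**Figure D3:**
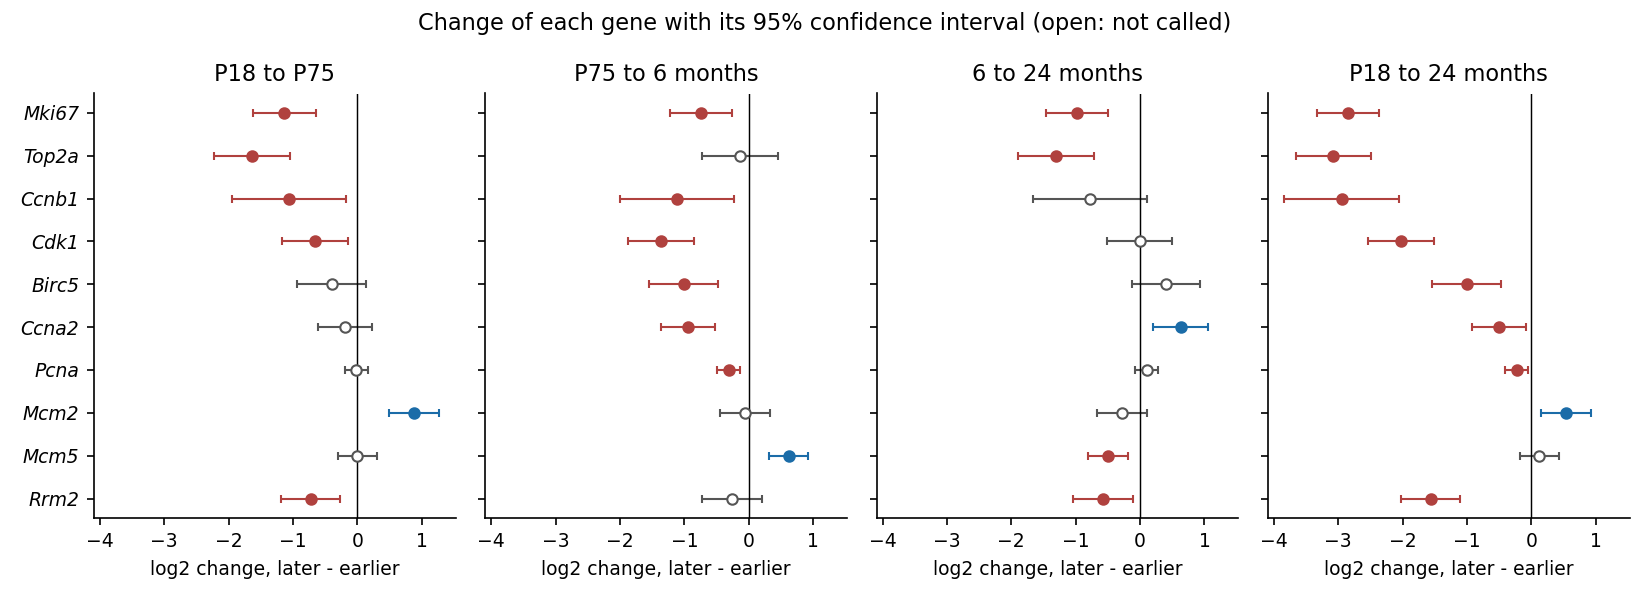
Log2 change of each gene (rows) in the 4 comparisons (panels), later minus earlier age, with its 95% confidence interval (filled red called lower, filled blue called higher, open not called). Mki67 is filled red in every panel, and Mcm2 is filled blue in the first and the last.

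Counted over the 10 genes, from P18 to P75 there were 5 that fell and 1 that rose, with a median log2 change of -0.53 against 0.02 over all genes tested. Of the 14634 genes, 22.9% fell and 25.9% rose in this comparison. From P75 to 6 months 6 of the 10 fell and 1 rose, with a median of -0.52 against 0.01, and 29.4% of all genes fell and 31.2% rose. Between 6 and 24 months 4 fell and 1 rose, with a median of -0.39 against 0.03, and 12.7% of all genes fell and 16.6% rose. Without replicate 1 of 6 months, or without replicate 2 of 24 months, this became 3 that fell and 0 that rose. Over the whole span 8 fell and 1 rose, with a median of -1.29 against -0.01, where 34.3% of all genes fell and 34.7% rose. Ccnb1 is counted among these falls and passed the filter for testing only with its P18 libraries. With scaling to the same total 6 fell and 1 rose over the whole span, and with quantile normalization 8 fell and 0 rose.

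The 5 members with the largest falls over the whole span stood near the bottom of all genes. Ranked by the log2 change from P18 to 24 months, Top2a was at 15, Ccnb1 at 17, Mki67 at 21, Cdk1 at 68 and Rrm2 at 134 of 14634. The rank of Ccnb1 may partly follow from the filter, which it passed only with its P18 libraries. Birc5 ranked 564, Ccna2 2699, Pcna 5247, Mcm5 8464 and Mcm2 10815.

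The other genes of the cycle were taken from a list of 104, of which 97 passed the filter (a mean of 10 or more over all libraries) and were tested. As this mean covers all ages, a gene high only at P18 could pass, so some falls may partly follow from the filter. The same filter was applied to the shares of all genes. From P18 to P75, 21 fell and 17 rose, from P75 to 6 months 38 fell and 9 rose, from 6 to 24 months 8 fell and 8 rose, and from P18 to 24 months 52 fell and 16 rose, to be read against the shares of all genes given above. Their median log2 changes were -0.09, -0.30, 0.02 and -0.38, smaller in size than those of the 10 genes. The split moved with the scaling. With libraries scaled to the same total, 13 fell and 19 rose from P18 to P75 and 6 fell and 3 rose from 6 to 24 months, and with quantile normalization the counts were 29 and 13, and 13 and 2. The 16 calls of the 6 to 24 month comparison became 4 without replicate 1 of 6 months, 8 without replicate 2 of 6 months, and 6, 6 and 10 without replicates 1, 2 and 3 of 24 months.

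The lists of mitosis genes differed in how many members fell from P18 to 24 months, when 34.3% of all genes fell and 34.7% rose, and differences between lists were not tested. Of 24 tested genes of the spindle, kinetochore, chromosome structure and cytokinesis, 17 fell and 2 rose, with a median log2 change of -0.67. Cenpa, the histone H3 variant of centromeres, dropped from 91.9 ± 15.8 normalized reads at P18 to 22.3 ± 2.51 at 24 months (SD, n = 3), a fall of 1.98 on the log2 scale (SE 0.21, limma adjusted p = 6.03e-07). Ncaph, a condensin I subunit, dropped from 50.4 ± 3.01 to 19.6 ± 8.18 (limma adjusted p = 0.00163). Of 12 mitotic kinases, checkpoint genes and APC/C activators 6 fell and 0 rose, though 3 fell with scaling to the same total. Cdc20, which activates the APC/C, went from 60.6 ± 15.97 to 30.7 ± 8.71 (limma adjusted p = 0.00813). Mad2l1, a spindle checkpoint protein, fell by 0.31 on the log2 scale (limma adjusted p = 0.0392), and this call was lost without replicate 3 of P18 (-0.17), without replicate 2 of 24 months (-0.28) and with scaling to the same total (-0.23).

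Among cyclins, Cdks and Cdc25 phosphatases 8 of 14 fell and 3 rose, or 10 and 1 with quantile normalization, in the same comparison and against the same 34.3% and 34.7% of all genes. Cks2, a small subunit of Cdk complexes, went from 121 ± 15.5 to 53.2 ± 6.16 normalized reads (limma adjusted p = 5.05e-05), and Cdk2, the kinase of S phase, from 51.4 ± 12.6 to 22.3 ± 5.14 (limma adjusted p = 0.000679). Of 13 E2F factors, pocket proteins and mitotic transcription factors 8 fell and 0 rose. E2f3, an activator of S phase genes, fell by 0.87 on the log2 scale (SE 0.09, limma adjusted p = 4.87e-07). Rb1, the retinoblastoma protein that restrains E2F factors, fell in the same comparison, by 0.62 (SE 0.09, limma adjusted p = 2.84e-05).

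The replication lists had calls in both directions, at shares near the 34.3% of all genes that fell and the 34.7% that rose. Of 15 licensing and helicase genes 5 fell and 5 rose from P18 to 24 months, or 8 and 5 with quantile normalization, and of 19 genes of DNA synthesis and nucleotide supply 8 fell and 6 rose, or 9 and 3. Dbf4, the activator of the Cdc7 kinase, fell by 0.74 on the log2 scale (limma adjusted p = 0.00943), whereas Gins3, a subunit of the GINS complex of the helicase, rose by 0.64 (limma adjusted p = 0.00105). Tyms, thymidylate synthase, fell by 0.67 (limma adjusted p = 0.00663), whereas Rfc4, a subunit of the clamp loader, rose by 0.86 (limma adjusted p = 3.38e-05). Rfc4 overlaps Eif4a2 on the opposite strand, and Cdc20, Tyms, E2f3 and Rb1 also share their loci with genes on the opposite strand, so their reads may not all be their own.

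The other 4 subunits of MCM2-7 were looked at beside Mcm2 and Mcm5 after their values were seen. Mcm4 rose from 266 ± 12.4 normalized reads at P18 to 384 ± 21.8 at 24 months (limma adjusted p = 0.000165). Mcm6 rose from 107 ± 19.7 to 167 ± 32.8 (limma adjusted p = 0.00257), and Mcm7 from 279 ± 19.1 to 419 ± 17.9 (limma adjusted p = 0.00018). These 3 calls held with both other scalings. Mcm7 shares its locus with Cops6, Ap4m1 and miRNA genes. Mcm3 fell by 0.49 on the log2 scale (limma adjusted p = 0.0387), which was lost without replicate 2 of P18 (-0.42) or replicate 2 of 24 months (-0.30). Of the 6 subunits, 4 were thus called higher at 24 months than at P18, 1 lower, and Mcm5 was not called, where 34.7% of all genes rose and 34.3% fell.

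**Figure D4:**
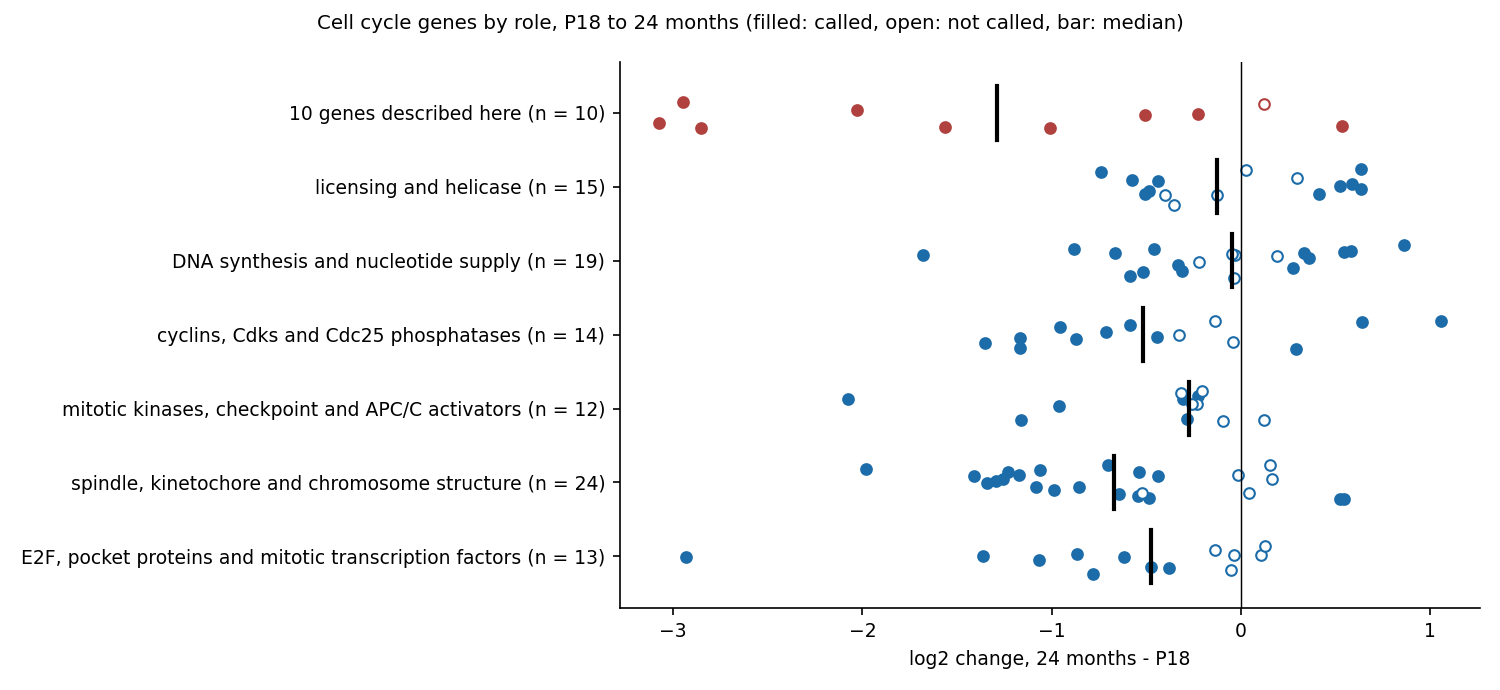
Log2 change from P18 to 24 months (horizontal axis, 24 months minus P18) of the 10 genes and of 97 other cell cycle genes by role (rows; each point is a gene, filled called, open not called, bar the median). The spindle row has its median at -0.67 and the licensing row at -0.13.

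Across the 12 libraries the 10 genes did not share a single profile. The mean profile was the mean of the z-scores of log2(normalized read count + 1) over the 10 genes. Each of the 10 is part of this mean, which raises its own r, whereas genes outside the 10 are not. Pearson's r with it was 0.97 for Mki67 and 0.94, 0.93, 0.92 and 0.88 for Cdk1, Ccnb1, Rrm2 and Top2a, with 12 libraries that also share age. Birc5 had an r of 0.85, Pcna of 0.77 and Ccna2 of 0.66, whereas Mcm2 and Mcm5 had -0.41 and -0.50. Of the rest of the table, the genes most like the mean profile were Nfia (0.988), a transcription factor of glia, then Klhl23 (0.986), Shroom2 (0.985), Rbbp9 (0.983) and Tbpl1 (0.982). Nfia dropped from 2287 ± 97.2 normalized reads at P18 to 680 ± 47.1 at 24 months. An r over 0.9 with the mean profile was found for 614 genes, or 4.199%.

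Markers of other cell types moved with age as well, and their part in the changes of the 10 genes was not tested. The neuron progenitor and immature neuron list had 7 of 8 genes tested, of which 5 fell from P18 to P75 and 6 from P18 to 24 months, against 22.9% and 34.3% of all genes. Its summed normalized read count was 7364 to 7749 at P18, 5124 to 5774 at P75, 3543 to 3871 at 6 months and 3874 to 4054 at 24 months. Neurod1, a factor of granule and other neurons, made up most of this sum, and Atoh1, the marker of granule cell progenitors, was at or near 0.

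The oligodendrocyte precursor list summed to 14945 to 15323 at P18 and 9304 to 10419 at P75, with 2 of 8 genes lower and 1 higher from P18 to P75, against 22.9% and 25.9% of all genes. Most of this difference lay in Olig1, which also marks later stages and went from 10854 ± 222 to 4989 ± 226 normalized reads. Sox6 fell by 0.86 on the log2 scale (limma adjusted p = 0.000219) and Ptprz1 rose by 0.56 (limma adjusted p = 0.0031). The other 5 genes were not called, among them Pdgfra, Cspg4 and Vcan with log2 differences of -0.04, -0.24 and -0.14. Over the whole span 2 of the 8 fell and 2 rose, against 34.3% and 34.7% of all genes. Of 7 newly formed oligodendrocyte markers 6 fell and 1, Bcas1, rose in that span, and Gpr17 fell by 2.71 on the log2 scale. Bcas1 held most of that list's sum, which was 32016 to 78152 at P18 and 119048 to 166201 at 24 months.

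Red blood cell markers summed to 383 to 513 at P18, 45.3 to 52.1 at P75, 34.1 to 63.0 at 6 months and 39.8 to 50.8 at 24 months. Of the 6 markers Hba-a1 and Hbb-b1 were listed at 0 in every library, and Alas2, the heme synthesis enzyme of red cell precursors, was the only one tested and fell by 3.30 on the log2 scale from P18 to P75. The microglia list rose, with 6 of 7 genes higher and none lower from P18 to 24 months, against 34.7% and 34.3% of all genes, and sums of 3299 to 4442 at P18 and 8612 to 9766 at 24 months. Endothelial markers summed to 410 to 474 at P18 and 407 to 451 at 24 months. Astrocyte markers ran from 65805 to 79331 and from 65071 to 69776 at these ages, and neuron markers from 139304 to 168579 and from 139564 to 142921. Single genes of these 3 lists moved both ways from P18 to 24 months, against 34.3% of all genes that fell and 34.7% that rose. Of 6 endothelial genes 1 fell and 3 rose, of 6 astrocyte genes 2 fell and 3 rose, and of 6 neuron genes 3 fell and 2 rose. Of 6 myelin and oligodendrocyte markers, 6 fell from P18 to P75 (median log2 change -1.21), against 22.9% of all genes. From P18 to 24 months 5 fell and 0 rose (median -1.21), against 34.3% and 34.7% of all genes. Among them, Mbp fell by 1.503 on the log2 scale from P18 to P75 and by 1.26 from P18 to 24 months.

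**Figure D5:**
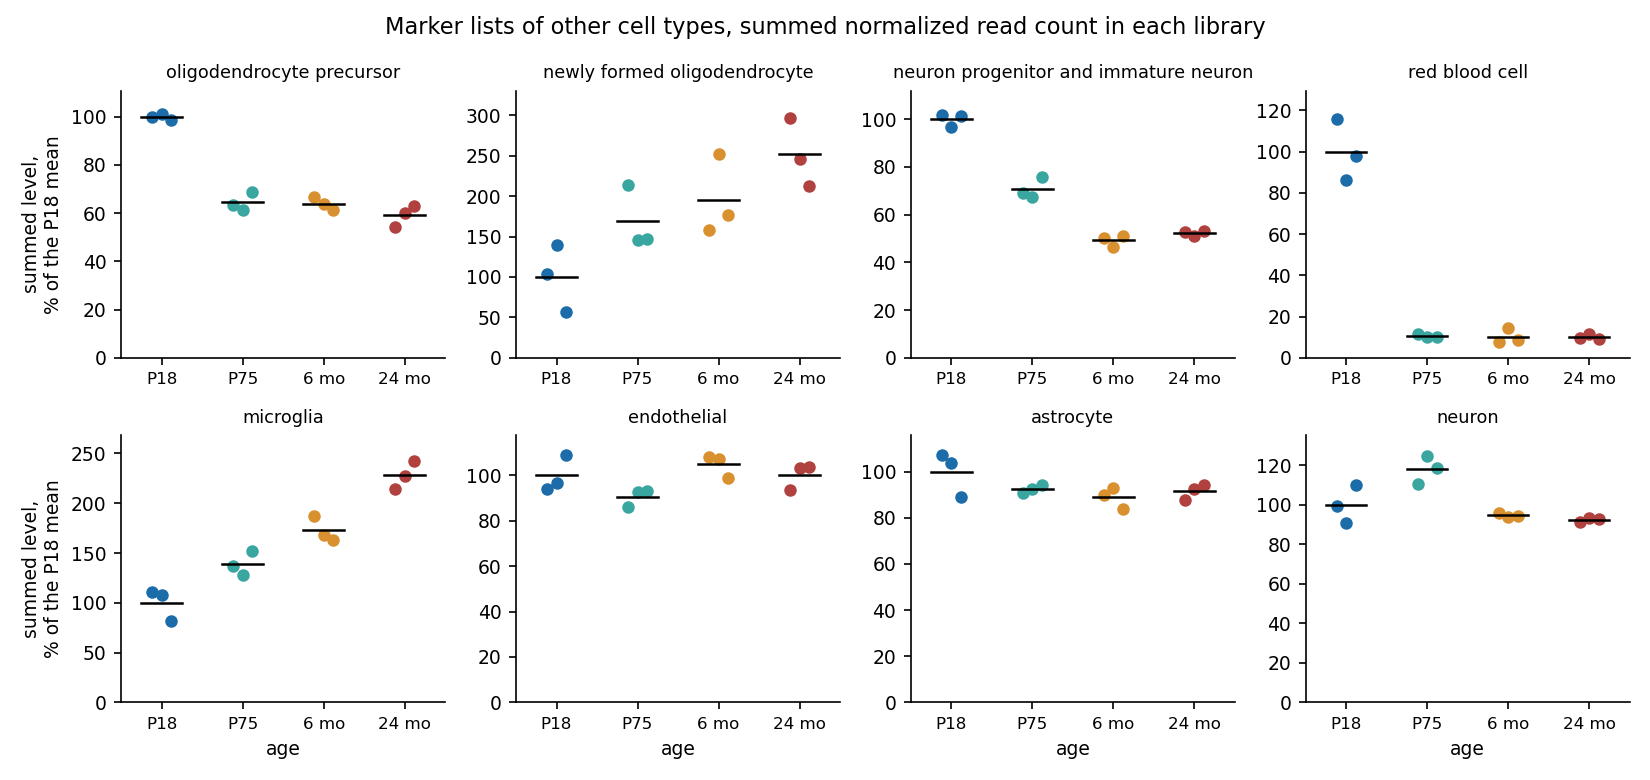
Summed normalized read count of 8 lists of cell type markers in each library, as a percent of the P18 mean of the list (vertical axes, from 0; horizontal axis, age; points are libraries, lines means, n = 3). The red blood cell list drops to 11.7%, 10.2% and 10.2% at P75, and the microglia list reaches 214% to 243% at 24 months.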

How the data were processed

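RNA-seq of purified mouse myelin was analysed in 12 libraries, 3 at each of 4 ages, grouped by the age in their labels. The authors mapped reads with TopHat2 (build mm9), took gene counts from HTSeq and divided by DESeq size factors, and the submitters' processing notes name TopHat2 2.0.8, SAMtools 0.1.19 and HTSeq 0.5.4p1. The deposited values are this signal, a normalized read count not divided by length. Within a library they are whole multiples of the value of 1 read (100% whole within 0.05 read), which gave the reads and the depth of 20299052 to 27214385 reads on genes. Counting was done before deposit, and its handling of multi-mapping reads and of strand is not given in the sources used here.

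Ages were compared with limma 3.58.1 (trend, empirical Bayes) in R 4.3.3 on log2(value + 1) for 14634 genes with a mean of at least 10, without a block, and called at a Benjamini-Hochberg adjusted p under 0.1. The p-values measure the spread between libraries, which the sources place in separate mice only at 6 months and which may be technical at other ages. An exact permutation test of 3 against 3 cannot go below 0.1 and was not used. Libraries of 1 age differed by more than sampling noise (mean chi-square per gene 8.77 to 124). Deviations of same-numbered libraries correlated weakly between P75 and 6 months (r 0.161, 0.101 and 0.187), and other pairs had r of -0.213 to 0.0286. Nothing in the labels ties the libraries, and these values do not establish a pairing. A block by replicate number was used only as an alternative.

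The 10 genes, the lists and the tests were chosen with earlier results of these data known. Besides these genes, the text names the nearest 5 genes by r, the marker lists and, per role, up to 2 genes called from P18 to 24 months with the largest change and a mean of at least 50 at either age. Alternatives were other pseudocounts (0.5, 10), filters, scalings, a block, a fit of only the 2 ages, edgeR 4.0.16 (TMM) and DESeq2 1.42.0 run on recovered reads, a stricter threshold of 0.05, and each library left out. The fits were tested on simulated data. The result of 1 marker is not reported here. Gene models are GENCODE on mm9, other matches of the longest transcripts were found with minimap2 2.31-r1302 (at least 90% identity over 20% of the transcript), and promoters come from RefSeq on GRCm38.p6, where 9 of 10 genes matched.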

Additional observations from a re-analysis of the deposited data

How the results depend on the processing

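Of 612 alternative values of the log2 changes of the 10 genes, 586 stayed on the same side of the threshold, 23 lost the call and 3 gained it, and 0 called values changed sign. Of the counts of calls, a filter for a mean over 100 left Pcna, Mcm2 and Mcm5 as the only members that could be fitted, with 1, 2, 1 and 2 called in the 4 comparisons in the order used above. That filter left 46 other cell cycle genes, of which 21, 26 and 32 were called from P18 to P75, P75 to 6 months and P18 to 24 months. From 6 to 24 months the 16 calls among other cell cycle genes became 9 with scaling to the same total and 3 at a false discovery rate of 0.05. Leaving out each library gave 4 to 6, 6 to 7, 3 to 6 and 8 to 9 members called and 28 to 40, 44 to 47, 4 to 12 and 59 to 69 other genes. With the replicate block 6, 7, 5 and 9 members were called, as without it, and 36, 48, 14 and 67 other genes, and it changed no call of a member. With the longest transcript the level per kb at P18 was 16.1 for Top2a, 14.3 for Ccnb1, 18.4 for Cdk1, 19.8 for Ccna2, 1559 for Pcna and 34.9 for Rrm2. Scaling to the same total moved the median of all genes from 0.02 to 0.14 in P18 to P75, and quantile normalization moved it from -0.01 to -0.12 in P18 to 24 months. Differences that were not called changed sign under some alternatives for Top2a and Mcm2 (P75 to 6 months), Cdk1 (6 to 24 months), Pcna (P18 to P75) and Mcm5 (P18 to P75 and P18 to 24 months). Groups of 3 libraries and 2 to 37 reads for Ccnb1 limit the precision.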
